A study of Mus musculus with 16 samples.

Results

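Complement is a cascade of secreted proteins and receptors that marks cells and debris for uptake and recruits myeloid cells, and 9 mouse genes of it are described here: C1qa, C1qb, C1qc, C2, Cfb, C3, C4b, C3ar1 and C5ar1. They were chosen by name, as the genes with these symbols in the deposited expression table, out of 37008 gene names on the array, and all 9 were present, through 13 probes. RNA came from 16 orthotopic pancreatic tumours of female C57BL/6 mice, hybridised to 1-colour Agilent arrays with Cy5 as the dye. There were 5 tumours taken 10 days after ADH-503 treatment began, 5 taken 48 h after it began, and 6 from vehicle-treated mice. ADH-503 is a small-molecule agonist of CD11b, the integrin alpha M chain, which as CR3 is itself a complement receptor, and the series asks which genes change at each time. The treated samples' titles say LA1 where their treatment label says ADH 503, the vehicle samples carry no time, and neither the implanted tumour cells nor the dose is stated in the labels. No label says whether each sample came from its own mouse, so p-values cover only how these samples spread, which may be technical in part.

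The C1q chains assemble into the recognition molecule of the classical pathway, and in most tissues they are made by macrophages. C2 and C4 form the classical C3 convertase, factor B (Cfb) is the protease of the alternative one, and both act on C3, the central component, whose fragments coat targets and release the peptide C3a. C3 and C4 are made largely by the liver and, within tissues, by fibroblasts, epithelial cells and some myeloid cells. C3a and C5a act through the receptors C3ar1 and C5ar1, carried mainly by myeloid cells.

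Every value of a gene is the signal of a 60-base probe, and where a gene had several probes the brightest represented it. The probes of the C1qa and C1qb chains, of C4b and of Cfb are shown whole, in lower case with no base marked. For C4b and Cfb, results below depend in part on which probe is read. All lie on the minus strand of build mm9, at chr4:136452409-136452468 for C1qa, chr4:136436578-136436637 for C1qb, chr17:34866361-34866420 for C4b and chr17:34994617-34994676 for the Cfb probe that represented the gene. The other Cfb probe maps over chr17:34993502-34993858, a span of 357 bases for its 60.
C1qa: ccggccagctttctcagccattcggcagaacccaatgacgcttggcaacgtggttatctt
C1qb: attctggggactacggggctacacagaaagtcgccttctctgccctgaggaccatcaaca
C4b: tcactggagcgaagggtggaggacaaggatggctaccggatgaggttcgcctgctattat
Cfb, probe used: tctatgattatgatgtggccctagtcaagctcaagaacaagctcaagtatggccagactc
Cfb, other probe: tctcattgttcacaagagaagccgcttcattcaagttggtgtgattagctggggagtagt

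The C4b probe lists the accessions of both C4b and C4a, so its signal can hold RNA of either gene; C4a is annotated as a transcribed pseudogene in the RefSeq table for GRCm38.p6. A further C4b probe lists C4b alone. The remaining genes were read at chr4:136445766-136445825 (C1qc), chr17:34999575-34999634 (C2), chr17:57343416-57343475 (C3), chr6:122798222-122798281 (C3ar1) and chr7:16832094-16832135 (C5ar1, where 42 of the probe's 60 bases are placed), all on the minus strand. In the RefSeq table C1qb, C1qc and C1qa follow each other among the protein-coding genes of chromosome 4, as do Cfb and C2 on chromosome 17. Whether each probe lies in an exon or a UTR was not looked up, since no mm9 annotation was used here.

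Levels below are log2 signals relative to the 75th percentile of the same array, so they compare 1 gene between arrays, not different genes. All 13 probes were well above background on all 16 arrays. Between arrays 74.93% to 81.18% of probes were well above background, and no spot was saturated. The arrays lay on 2 slides: slide 1 held 3 arrays of 10 days, 4 of 48 h and 1 of vehicle, and slide 2 held 2 of 10 days, 1 of 48 h and 5 of vehicle. Slide and group were therefore largely confounded. Differences from vehicle with slide as a block are given for each gene. Vehicle replicate 2 and 48 h replicate 5 share an ID number in their titles, and the differences from vehicle that moved by over 1.5 times without both are given with the other settings. All 14 macrophage markers and all 12 of ductal and tumour epithelium were well above background on every array, as were 10 of 13 fibroblast markers. Of the 10 hepatocyte markers, Alb was so on 1 of 16 arrays, Ahsg on 5 and Fga on 8, Apoa1 and Fgb on 14, and Apoa2, Ttr, Serpina1a, Hpx and Cyp2e1 on all 16.

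No complement gene differed between groups after adjustment. Of the 9 genes, 7 measured higher at 10 days than in vehicle, 8 measured higher at 48 h than in vehicle, and all 9 measured lower at 10 days than at 48 h. Every one of these differences was small, at most 0.40 on the log2 scale in size. Over all 30583 genes tested, 48.0%, 46.8% and 51.1% were higher in the first-named group of the same 3 comparisons. Of 12 housekeeping genes, 5 measured higher at 10 days than in vehicle and 11 at 48 h than in vehicle, and 10 measured lower at 10 days than at 48 h, with medians of -0.01, 0.05 and -0.06. The comparisons share arrays, so their directions are not independent of each other.

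At 10 days against vehicle the median log2 fold change of the 9 genes was 0.07, beside -0.01 over all genes tested. Neither any of the 9 nor any of the 30583 genes passed an adjusted p of 0.05 in limma (percent called 0), and 1081 genes had an unadjusted p under 0.05 (3.53%), none of them among the 9. At 48 h against vehicle the median was 0.14, beside -0.01 over all genes; 0 genes passed in limma (percent called 0), 783 had an unadjusted p under 0.05 (2.56%), and C1qa was 1 of them. For 10 days against 48 h the median was -0.07, beside 0.00 over all genes. There too 0 genes passed in limma (percent called 0), and 1062 had an unadjusted p under 0.05 (3.47%), none among the 9. In all 3 comparisons the arrays of both groups overlapped for each of the 9 genes. Over all genes, the groups did not overlap for 0.213%, 0.141% and 0.504% of genes.

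**Figure D1:**
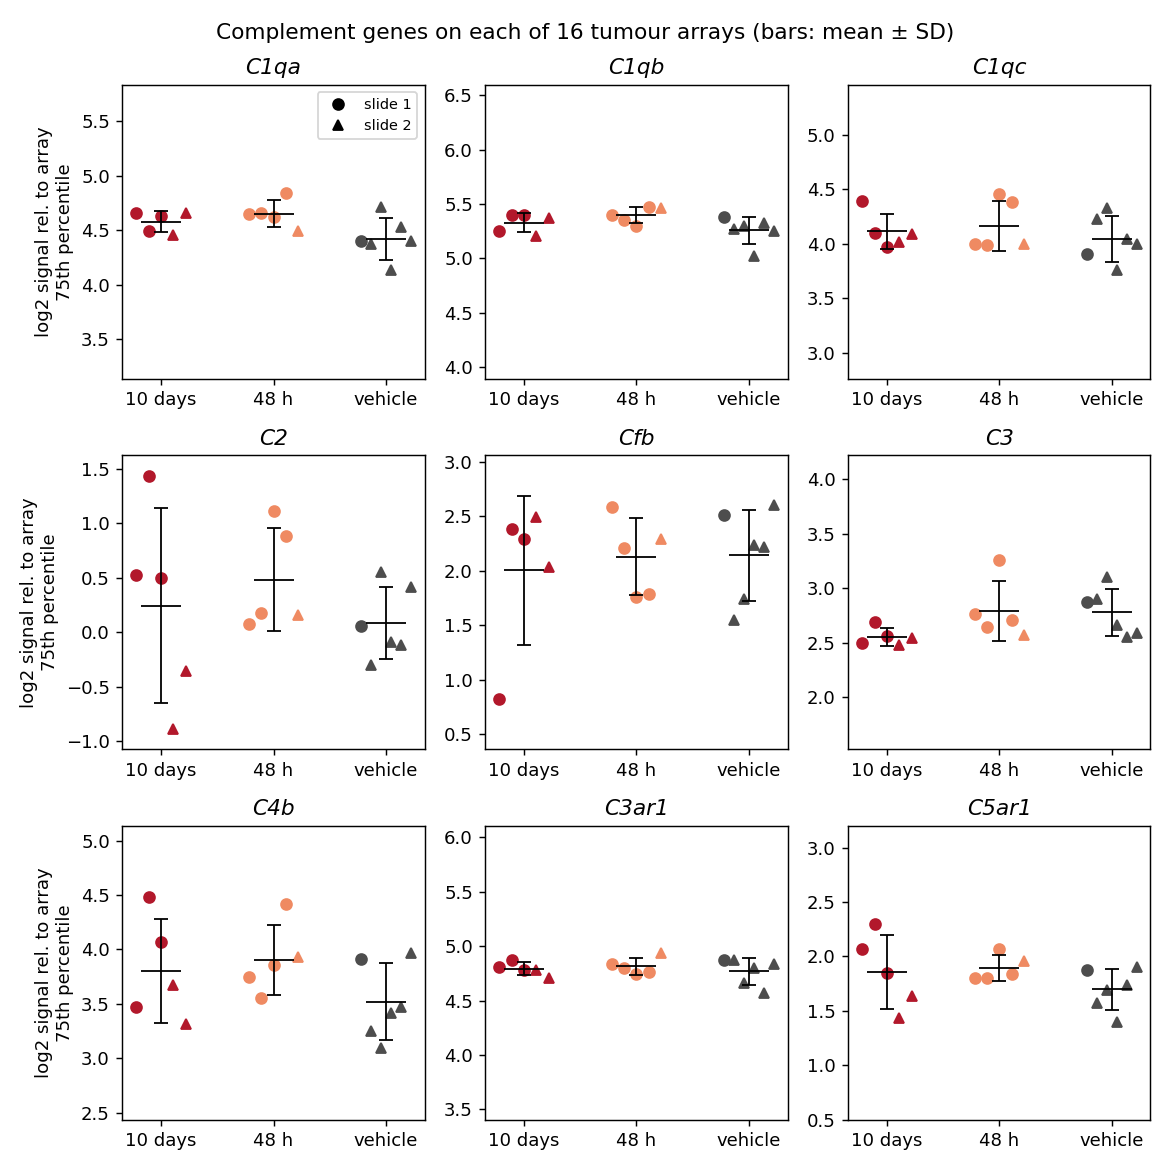
Log2 signal of each complement gene relative to the array's 75th percentile (y axis, the same span of 2.7 log2 units in each panel) on each of 16 arrays, by group (x axis); circles are slide 1, triangles slide 2, bars are mean ± SD. The groups overlap for every gene, and C2 and Cfb spread most, while C3ar1 and C1qb stay nearly level.

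The 3 chains of C1q varied little between arrays. C1qa, the A chain, measured 4.66, 4.49, 4.63, 4.46 and 4.66 in tumours at 10 days, 4.65, 4.66, 4.62, 4.84 and 4.49 at 48 h, and 4.13 to 4.71 with a median of 4.40 in vehicle. The treated arrays all lay above the vehicle mean, but within the vehicle range at 10 days, and only 48 h replicate 4 stood above it. C1qa was 0.23 higher at 48 h than in vehicle (95% interval 0.0046 to 0.456; limma adjusted p = 0.999981, unadjusted p = 0.046), a fold of 1.17, and 0.16 higher at 10 days (-0.0685 to 0.383). With slide as a block the differences were 0.188 at 48 h and 0.128 at 10 days, and without vehicle replicate 4 they were 0.171 and 0.0976. The 48 h difference was 0.289 within slide 1 and 0.0638 within slide 2. In the limma fit over probes instead of genes, its unadjusted p was 0.0507.

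C1qb, the B chain, measured 5.25, 5.40, 5.40, 5.21 and 5.37 at 10 days, 5.40, 5.35, 5.30, 5.47 and 5.46 at 48 h, and 5.02 to 5.38 with a median of 5.28 in vehicle. All 5 arrays of 48 h stood above the vehicle mean, with 3 of them above the highest vehicle array. The log2 difference from vehicle was 0.14 ± 0.09 (SE) at 48 h and 0.07 ± 0.09 at 10 days. With slide as a block these were 0.109 and 0.0494, and without vehicle replicate 4 they were 0.0899 and 0.0216. Across the 16 arrays C1qb had an SD of 0.110, and only 1.2% of genes tested had a smaller one. Such shares, here and for the genes below, were not matched on signal level.

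C1qc, the C chain, measured 4.39, 4.10, 3.97, 4.02 and 4.09 at 10 days, 4.0, 3.99, 4.46, 4.38 and 4.0 at 48 h, and 3.76 to 4.33 with a median of 4.02 in vehicle. At most 2 arrays of each group stood above 4.2, and the groups overlapped. The log2 difference from vehicle was 0.12 ± 0.13 (SE) at 48 h and 0.07 ± 0.13 at 10 days. With slide as a block these were 0.0875 and 0.0471, and without vehicle replicate 4 they were 0.064 and 0.0129. Leaving out 1 array, the 10 day difference ran from 0.00122 (without 10 days replicate 1) to 0.127, and the 48 h difference from 0.0487 to 0.178. A further C1qc probe, which lists an Ensembl transcript alone, was far dimmer, at -2.38 to -1.54 over the 16 arrays, against 3.76 to 4.46. It did not follow the first across arrays (r = 0.16, n = 16), and at 10 days it measured 0.10 lower than vehicle instead of higher.

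Macrophage markers differed little between groups as well. Of 14 markers, 12 measured higher at 10 days than in vehicle and 13 at 48 h, with median log2 fold changes of 0.04 and 0.11, and 0 had an unadjusted limma p under 0.05. Their mean, relative to the mean of all arrays, ran from -0.0520 to 0.112 at 10 days, 0.000939 to 0.126 at 48 h and -0.228 to 0.0723 in vehicle. In whole-tumour RNA fewer cells of a type and less RNA per cell cannot be told apart. The part of macrophage content in the C1q values was not tested.

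By the probes used, the convertase proteases varied most. C2, the classical protease, measured 0.53, 1.44, 0.50, -0.89 and -0.36 at 10 days, 0.08, 0.18, 1.11, 0.88 and 0.16 at 48 h, and -0.30 to 0.55 with a median of -0.01 in vehicle. Both the highest and the lowest of all 16 arrays were 10 day tumours, 5.0-fold apart, and 79.2% of genes had a smaller SD than C2. Its log2 difference from vehicle was 0.40 ± 0.34 (SE) at 48 h and 0.16 ± 0.34 at 10 days. Slide 1 arrays averaged 0.676 above those of slide 2, at 0.597 ± 0.505 against -0.0791 ± 0.458 (SD, n = 8 each). With slide as a block both differences turned, to -0.0565 at 48 h and -0.151 at 10 days. Without 10 days replicate 2 the 10 day difference was -0.138.

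Cfb, the alternative pathway protease, measured 0.82, 2.38, 2.29, 2.49 and 2.03 at 10 days, 2.59, 2.21, 1.76, 1.79 and 2.29 at 48 h, and 1.55 to 2.60 with a median of 2.23 in vehicle. By this probe, 10 days replicate 1 stood far below every other array. The log2 difference from vehicle was -0.14 ± 0.29 (SE) at 10 days and -0.01 ± 0.29 at 48 h. With slide as a block these were -0.0914 and 0.0558. Without 10 days replicate 1 the 10 day difference was 0.156. The other Cfb probe, with r = 0.72 to the first over 16 arrays, also had its lowest value in 10 days replicate 1 (0.50). By that probe vehicle replicate 2 lay close to it, at 0.52, and the 16 arrays ran from 0.50 to 1.42. The same probe measured 0.03 above vehicle at 10 days and 0.18 above it at 48 h.

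By the probes used, C3 was the only gene of the 9 for which no 10 day array reached the vehicle mean. It measured 2.50, 2.69, 2.56, 2.48 and 2.54 at 10 days, 2.76, 2.64, 3.26, 2.71 and 2.57 at 48 h, and 2.55 to 3.10 with a median of 2.76 in vehicle. The 10 day values lay in a narrow band, 3 of the 5 below the lowest vehicle array, with an SD of 0.083, against 0.213 in vehicle. The log2 difference was -0.22 at 10 days against vehicle (95% interval -0.507 to 0.0616; limma adjusted p = 0.99998), a fold of 0.857, and -0.23 against 48 h (-0.531 to 0.0633). Against vehicle it was -0.283 within slide 1, which holds 1 vehicle array, and -0.25 within slide 2, which holds 2 arrays of 10 days. The fit that blocks on slide also gave -0.283. The further C3 probe gave -0.09 at 10 days against vehicle, with r = 0.78 between the probes. Its 10 day arrays, at 2.16 to 2.65, all lay within its vehicle range of 2.06 to 2.71. At 48 h against vehicle C3 differed by 0.01 ± 0.13 (SE), and by -0.0778 with slide as a block.

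Neutrophil markers measured lower at 10 days too. All 9 on the list were well above background on every array, all 9 measured lower at 10 days than in vehicle, 3 of them with an unadjusted limma p under 0.05, and 0 passed after adjustment. Their mean was -0.524 at 10 days (-1.31 to 0.337), 0.0439 at 48 h (-0.506 to 1.14) and 0.400 in vehicle (-0.434 to 1.14). Fibroblast markers showed 9 of 13 lower at 10 days, with a mean running from -1.20 to 0.713, against -0.286 to 0.435 in vehicle, and all 12 epithelial markers measured lower, with a mean running from -1.38 to 0.590 at 10 days, against -0.467 to 1.40 in vehicle. All 8 erythroid markers measured lower at 10 days than in vehicle, 4 with an unadjusted limma p under 0.05, with a median of -1.50, and their mean was -0.600 at 10 days, -0.469 at 48 h and 0.891 in vehicle. Of 16 acinar markers, 15 measured higher at 48 h than in vehicle, 9 with an unadjusted limma p under 0.05, and 14 measured lower at 10 days than at 48 h, 13 of them with such a p, and their mean was -0.413 at 10 days, 0.671 at 48 h and -0.215 in vehicle. No gene of these lists passed after adjustment. The part of these cells in the complement values was not tested.

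C4b measured 3.47, 4.48, 4.07, 3.67 and 3.31 at 10 days, 3.75, 3.55, 3.86, 4.42 and 3.93 at 48 h, and 3.09 to 3.97 with a median of 3.45 in vehicle. All 5 arrays of 48 h were above the vehicle mean, and a pair of 10 day arrays together with 48 h replicate 4 stood above every vehicle array. The log2 difference from vehicle was 0.38 ± 0.23 (SE) at 48 h and 0.28 ± 0.23 at 10 days, folds of 1.30 and 1.22. The probe that lists C4b alone gave 0.33 at both times, with r = 0.86 to the first. The probe named for C4a followed both, at r = 0.91 and 0.92 over 16 arrays. It measured 0.37 ± 0.22 (SE) higher than vehicle at 48 h and 0.45 ± 0.22 higher at 10 days. The C4b probe used lists both genes, so its signal cannot be assigned to 1 of them. Whether the probe that lists C4b alone also takes up C4a RNA was not tested. C4b was 0.426 higher on slide 1 than on slide 2, and with slide as a block its differences were 0.163 at 48 h and 0.132 at 10 days.

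The receptors differed in how much they varied. C3ar1, the C3a receptor, measured 4.81, 4.87, 4.78, 4.78 and 4.71 at 10 days, 4.84, 4.80, 4.74, 4.76 and 4.94 at 48 h, and 4.57 to 4.87 with a median of 4.82 in vehicle. All arrays of all groups lay within 1.29-fold of each other. Only 0.226% of genes tested, not matched on signal level, had a smaller SD over the 16 arrays. Its log2 difference from vehicle was 0.02 at 10 days (95% interval -0.155 to 0.204) and 0.05 at 48 h (-0.130 to 0.229), or 0.0143 and 0.0342 with slide as a block, so the intervals leave room for changes of up to 1.17-fold.

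C5ar1, the C5a receptor, measured 2.07, 2.30, 1.85, 1.43 and 1.64 at 10 days, 1.80, 1.80, 2.07, 1.84 and 1.96 at 48 h, and 1.40 to 1.90 with a median of 1.72 in vehicle. The 48 h arrays all stood above the vehicle mean, while the 10 day arrays spread over nearly the whole range of the 16 arrays. The log2 difference from vehicle was 0.20 ± 0.15 (SE) at 48 h and 0.16 ± 0.15 at 10 days. Slide 1 arrays averaged 0.281 above slide 2 arrays, and with slide as a block the differences were 0.0288 at 48 h and 0.0466 at 10 days.

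**Figure D2:**
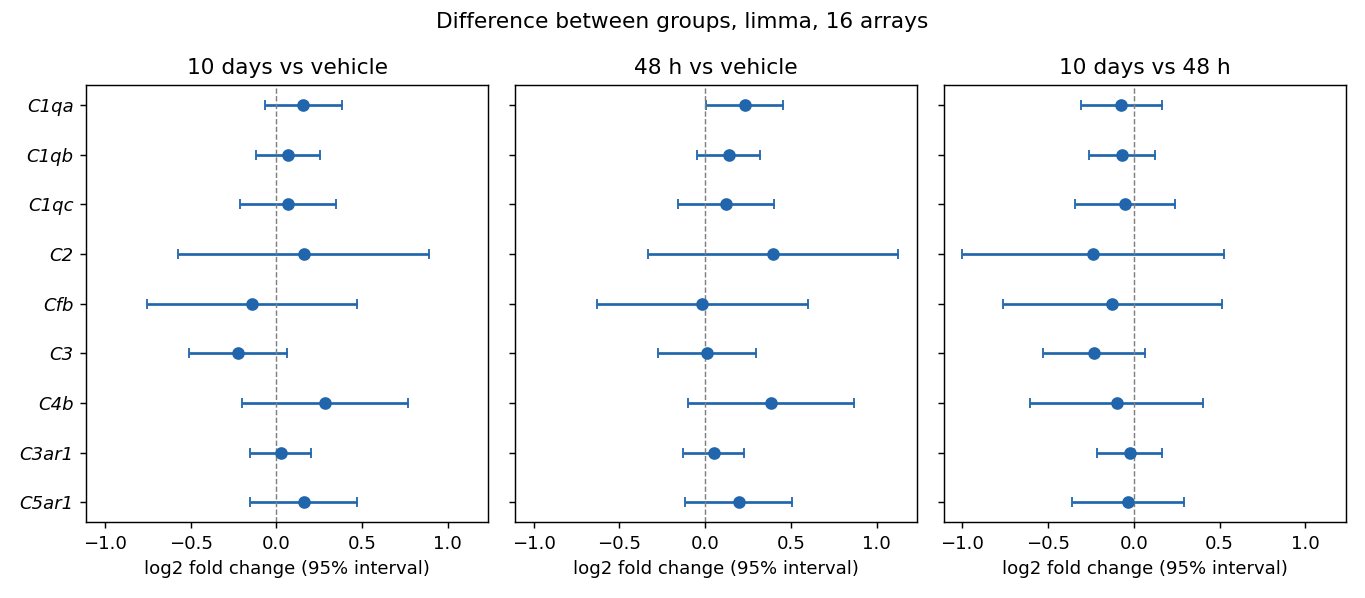
Log2 fold change of each complement gene (x axis, with 95% intervals from limma) for 10 days against vehicle, 48 h against vehicle and 10 days against 48 h, over 16 arrays. All intervals include 0 except that of C1qa at 48 h against vehicle, which starts at 0.0046, and those of C2 and Cfb are the widest.

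For 7 of the 9 genes the group means stood in the order 48 h, 10 days, vehicle from high to low. Cfb was highest in vehicle and lowest at 10 days, and C3 was highest at 48 h and lowest at 10 days. The gap between the outermost group means exceeded the pooled SD within groups for C1qa (0.230 against 0.148), C1qb (0.137 against 0.100) and C3 (0.234 against 0.207). It was below that SD for the other 6. How often this holds over all genes was not counted, so it sets these genes apart from no others. Without vehicle replicate 4 the differences of 48 h from vehicle were 0.171 for C1qa and 0.0899 for C1qb. Neighbouring groups in these orders did not differ past the threshold for any gene.

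Components usually made by macrophages were set against those usually made by stroma. The macrophage-made set was C1qa, C1qb and C1qc and the stroma-made set C3 and C4b, each gene taken relative to its vehicle mean and averaged per array. The set names follow the usual sources, and the source in these tumours was not tested. Over the 16 arrays C4b had r = 0.07 with fibroblast and 0.39 with macrophage markers, and C3 had 0.43 and 0.10. The C1q mean was 0.193, 0.0896, 0.0917, -0.00971 and 0.130 at 10 days, 0.111, 0.0925, 0.217, 0.320 and 0.0747 at 48 h, and -0.274 to 0.205 with a median of 0.0188 in vehicle. The C3 and C4b mean was -0.162, 0.439, 0.169, -0.0725 and -0.222 at 10 days, 0.107, -0.0558, 0.415, 0.417 and 0.103 at 48 h, and -0.137 to 0.243 with a median of -0.0648 in vehicle.

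The macrophage-made genes thus stood 0.0686 above the stroma-made ones at 10 days and -0.0342 relative to them at 48 h, with SDs of 0.299 and 0.128 between arrays, against 0 by construction and an SD of 0.217 in vehicle. Neither value exceeded the spread between arrays, and the groups overlapped. The average of C3 and C4b hid opposite signs at 10 days, -0.22 for C3 and 0.28 for C4b. With slide as a block the values were 0.151 at 10 days and 0.0856 at 48 h, where the sign turned. The 10 day value was 0.228 within slide 1, 0.157 within slide 2 and -0.00386 with all probes of each gene averaged, and the 48 h value was 0.216 and -0.0785 within the slides. Leaving out 1 array gave -0.00285 to 0.173 at 10 days and -0.0847 to 0.0177 at 48 h, so each value changed sign when some single arrays were left out. No test was made of this difference, since the genes were chosen with earlier results known.

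**Figure D3:**
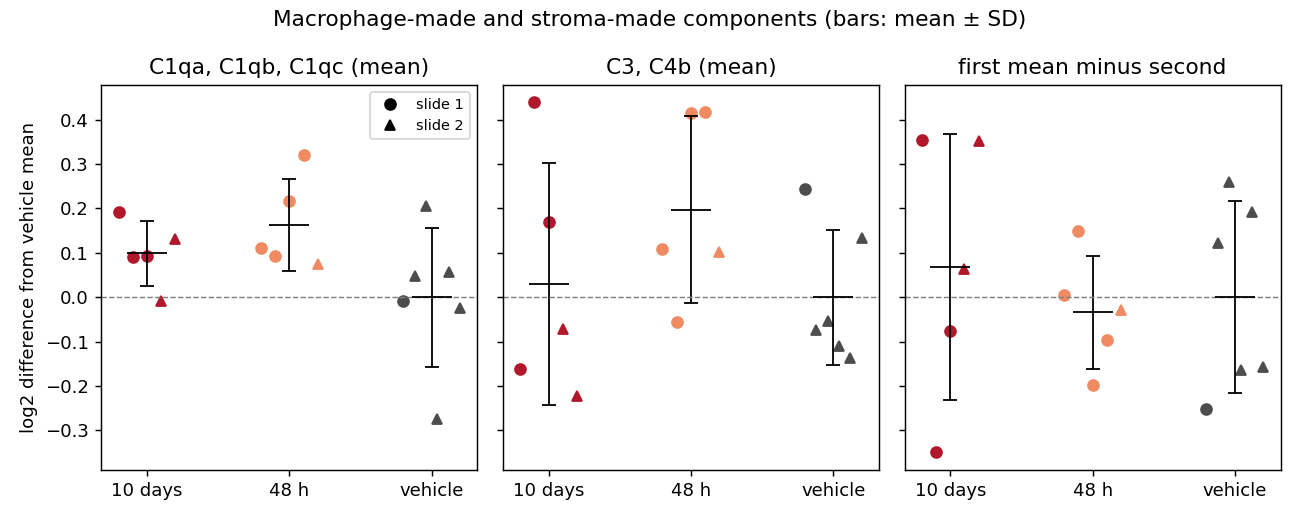
Mean of C1qa, C1qb and C1qc, mean of C3 and C4b, and their difference (panels), each as log2 difference from the vehicle mean (y axis), per array and group (x axis); circles are slide 1, triangles slide 2, bars are mean ± SD. The C1q mean spreads less than the C3 and C4b mean, and all groups overlap in the difference.

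How the genes varied together over the 16 tumours was measured for all 36 pairs. After adjustment over the 36, 2 pairs passed by permutation of Pearson's r. C5ar1 followed C2 at r = 0.82 (permutation p = 0.00012, adjusted p = 0.00432; Spearman's rho = 0.74, permutation p = 0.00138, adjusted 0.0497). Without the 2 arrays farthest from the median of C2 it was 0.656, which did not pass (adjusted p = 0.187), so the call rests in part on them. It was 0.718 with slide means removed, 0.798 within slide 1 (permutation adjusted p = 0.264) and 0.65 within slide 2 (permutation adjusted p = 0.313). Leaving out each array in turn gave 0.746 to 0.856, and the pair passed each time.

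The other pair ran in opposite directions: Cfb against C1qc at r = -0.76 (permutation p = 0.0004, adjusted p = 0.0072; rho = -0.66, permutation p = 0.00645, adjusted 0.0774). The 5 arrays highest in C1qc, at 4.23 or more, had Cfb at 0.822 to 1.79, and the other 11 had 2.03 to 2.60. Leaving out each array in turn gave -0.82 to -0.744, and the pair passed each time. Within slides it was -0.80 and -0.688, and without the 2 arrays farthest from the median of C1qc it was -0.715 (permutation adjusted p = 0.155). The relation was also tied to the probes: with the other probe of Cfb it was -0.226 and with the other, far dimmer probe of C1qc -0.375, and neither passed by permutation.

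**Figure D4:**
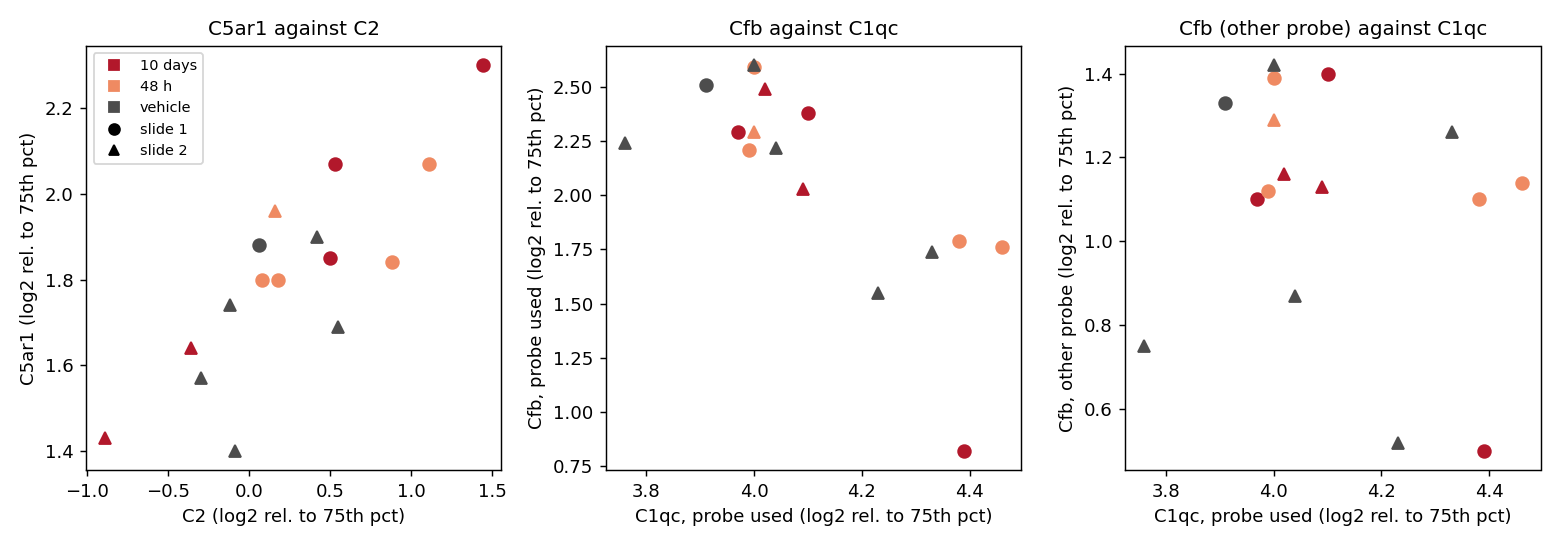
Log2 signal, relative to the array's 75th percentile, of C5ar1 against C2 and of Cfb against C1qc with each of the 2 Cfb probes, 1 point per array; colours are groups, circles slide 1 and triangles slide 2. C5ar1 and C2 run along 1 line, while 5 arrays with high C1qc hold the lowest Cfb values of the probe used and do not all do so with the other probe.

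The C1q chains, whose genes are neighbours, differed in how closely they were correlated, and that difference was not tested. C1qa correlated with C1qb at r = 0.67 (permutation adjusted p = 0.0746) and with C1qc at 0.63 (permutation adjusted p = 0.0759), while C1qb and C1qc had r = 0.22 (permutation adjusted p = 0.664). Without the 2 arrays farthest from the median of C1qa the first of these was 0.174 and the second 0.355. With the other, far dimmer C1qc probe, C1qa and C1qc had r = -0.0403. The neighbours C2 and Cfb had r = -0.21. C3 and C4b, both counted here as stroma-made, had r = -0.11 (permutation adjusted p = 0.738).

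C4b correlated with C5ar1 (r = 0.61, permutation adjusted p = 0.0951), C2 (r = 0.59, permutation adjusted p = 0.0995) and C1qb (r = 0.51, permutation adjusted p = 0.188). With the C4b probe that lists C4b alone, the first 2 of these were 0.705 (permutation adjusted p = 0.0186) and 0.804 (permutation adjusted p = 0.00288), past the threshold. By slide, values are given for the probe used only. With slide means removed, C4b had 0.409 with C5ar1 and 0.383 with C2. Within slide 1 these were 0.319 and 0.646, and within slide 2 they were 0.508 and 0.0455.

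Each of the 9 genes was also set against the mean of the macrophage, fibroblast and epithelial marker lists, 27 relations in all, of which 0 passed by permutation after adjustment. The highest were with macrophage markers: C1qb at r = 0.64 (permutation adjusted p = 0.211), C5ar1 at 0.60 (permutation adjusted p = 0.211) and C1qa at 0.54 (permutation adjusted p = 0.300). Their Spearman values were 0.38, 0.56 and 0.19. Within slide 1 the value was -0.0683 for C1qb, 0.418 for C5ar1 and -0.00452 for C1qa. Within slide 2 it was 0.776, 0.660 and 0.669 in the same order. Without the 2 arrays farthest from the list's median it was 0.373, 0.333 and 0.104, so these rest on few arrays. C3 had r = 0.43 with fibroblast and 0.10 with macrophage markers, and C4b had 0.07 with fibroblast and 0.39 with macrophage markers; the difference between lists was not tested. In the authors' deposited table the relation of C1qb with macrophage markers alone passed, at 0.734 (permutation adjusted p = 0.0359), and C4b with macrophage markers had r = 0.66 (permutation adjusted p = 0.0722).

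None of 18 relations of the 9 genes with the share of probes above background or the 75th percentile of the array passed by permutation (lowest adjusted p = 0.103, C3ar1 with the percentile at r = 0.67).

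**Figure D5:**
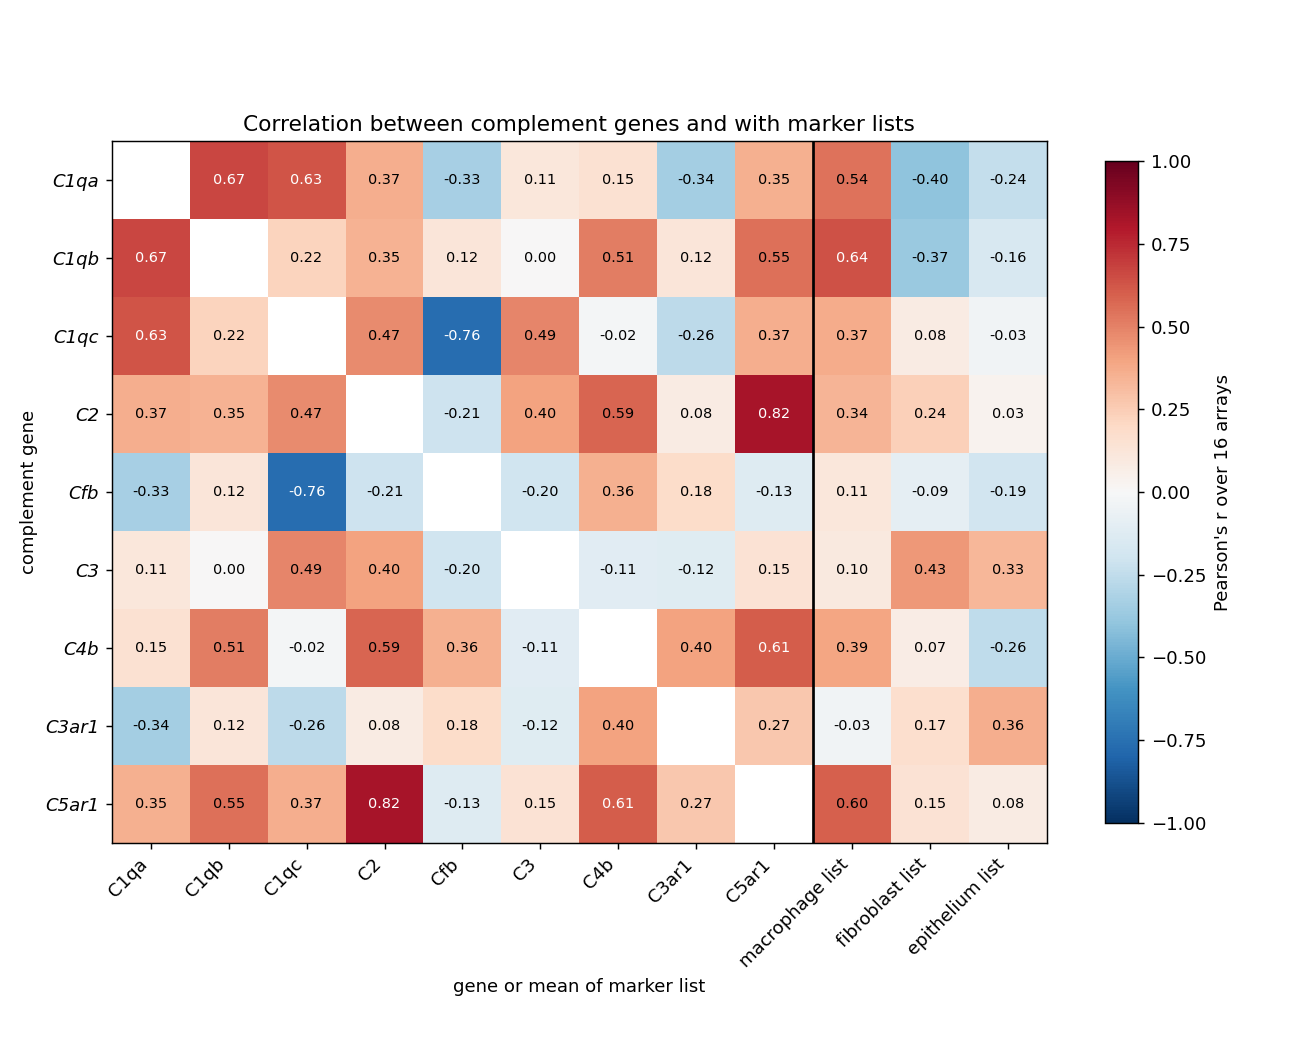
Pearson's r over 16 arrays between the 9 complement genes (rows, left columns) and with the means of the macrophage, fibroblast and epithelial marker lists (right columns). The pairs past the adjusted threshold are C2 with C5ar1 at 0.82 and C1qc with Cfb at -0.76.

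The genes whose pattern over the 16 arrays was most like each complement gene were taken from 18172 genes well above background on every array; these correlations describe the arrays and carry no test. For C4b they were Folr2 at r = 0.96, Gm4788 at 0.94 and F13a1 at 0.93, with Folr2 at 0.96 within slide 1, 0.95 within slide 2 and 0.85 by the probe that lists C4b alone. Folr2, the folate receptor beta, is known as a marker of tissue-resident macrophages. For C5ar1 they were Cd163, the haemoglobin scavenger receptor of macrophages, at 0.85, Mtmr12 at 0.84 and Man1c1 at 0.79. Cd163 had 0.66 within slide 1 and 0.82 within slide 2. It is also on the macrophage marker list, so its value is not separate from that of C5ar1 with the list. For C3 they were Ppbp, a platelet chemokine, at 0.83, Mmp9, a matrix protease, at 0.81, and Itgav, an integrin chain, at 0.80, and the other C3 probe had 0.55, 0.60 and 0.42 with the same genes.

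For C1qa they were Ubl7 at 0.85, Flii at 0.84 and Trmt1 at 0.83, and for C1qb Dcxr, Cryl1 and Glul at 0.83, 0.83 and 0.82. For C2 they were Plekhg5 at 0.85, A4galt at 0.84 and Pcp4l1 at 0.83, and for C3ar1 Ypel2, Dio3os and Plekhh1 at 0.83, 0.83 and 0.80. Cfb had the values 0.95 with Otulinl, 0.94 with G6pd2 and 0.93 with Srsf1, and its other probe had 0.66, 0.59 and 0.49 with the same genes. C1qc had 0.91 with Prkacb, 0.90 with 4922502H24Rik and 0.90 with Aplp2, and its other, far dimmer probe had 0.01, 0.08 and 0.14. The other probe of each gene thus gave lower values, near 0 for C1qc.

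The rest of the complement system, 46 further genes, gave no call either. Of these 41 were tested and 35 were well above background on every array, and 0 passed adjustment in limma in any comparison. At an unadjusted limma p under 0.05, 1 of the 41 was higher at 10 days than in vehicle, and 1 at 48 h than in vehicle. For 10 days against 48 h it was 2, and 0 were lower in any comparison. Over all 30583 genes tested, 3.53%, 2.56% and 3.47% had such a p, in either direction. The median log2 fold changes of the 41 were 0.03, 0.05 and -0.06. C7, a subunit of the membrane attack complex, was 0.31 ± 0.11 (SE) above vehicle at 10 days, at -2.49 ± 0.20 (SD, n = 5) against -2.80 ± 0.07 (SD, n = 6), and 0.40 ± 0.12 above 48 h. Vsig4, a macrophage receptor for C3 fragments, was 0.77 ± 0.40 (SE) above vehicle at 10 days, at 1.80 ± 0.60 (SD, n = 5) against 1.03 ± 0.61 (SD, n = 6).

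At 48 h the smallest p among these belonged to C1rl, a protease related to C1r, 0.39 ± 0.14 (SE) above vehicle. C8g, a chain of C8, was 0.51 ± 0.31 above vehicle at 48 h. C8a measured 0.43 lower at 48 h and 0.54 lower at 10 days than vehicle, but it was well above background on only 3 of 5 treated arrays at each time and 5 of 6 vehicle arrays. Cpn1, the catalytic chain of the carboxypeptidase that inactivates C3a and C5a, was 0.39 ± 0.18 (SE) higher at 10 days than at 48 h, C5ar2, the second C5a receptor, 0.27 ± 0.15 higher, and Cfd, the protease that activates factor B, 0.37 ± 0.22 higher. Of the chains of CR3, Itgam (CD11b) differed from vehicle by -0.02 ± 0.12 (SE) at 10 days and 0.00 ± 0.12 at 48 h, and Itgb2 by -0.02 ± 0.10 and 0.08 ± 0.10, none of them past the threshold.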

How the data were processed

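Agilent Feature Extraction 11.5.1.1 read the scans, per the submitters' processing notes. The deposited processed signal, per the file headers, is a background-subtracted linear intensity, and probe positions are on mm9. The authors' deposited table holds log2 values, quantile-normalized as its sorted columns differ by at most 0.0043; it correlated with each array at r = 0.9983 or more and served as an alternative. Control and outlier spots were left out, spots of a probe were averaged on the log2 scale, and each array's 75th percentile (signal 4952.52 to 6735.75) was subtracted. The number of arrays limits the precision. Names came from a RefSeq table for GRCm38.p6 (32994 probes by accession, 10744 by symbol or synonym, 12867 keeping the file's name). The brightest probe represented a gene, tested if well above background on at least 5 of 16 arrays.

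Groups were compared in limma 3.58.1 (R 4.3.3) with 1 model over 3 groups and robust eBayes, 2-sided, with Benjamini-Hochberg adjustment over 30583 genes and a threshold of 0.05; the script was tested on simulated data. Correlations used 100000 permutations (Python 3.11.15, numpy 2.4.6), 2-sided, adjusted within each family. Named genes were all 9 members, up to 4 other complement genes per comparison with the smallest p, Itgam and Itgb2, and the 3 genes most correlated with each member. One gene that this rule names is not reported here. The members and lists were chosen with earlier results of these data known. Alternatives were other normalizations, background corrections, filters, probe rules, slide as a block or alone, and leaving arrays out; single arrays left out and other probes, for pairs of genes, were chosen after seeing the data.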

Additional observations from a re-analysis of the deposited data

Results flagged for a closer look

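Of 27 sets of values (9 genes in 3 groups), 3 held an array that stood apart from the others of its group by Dixon's criterion; chance alone marks about 1 in 20 sets. Cfb in 10 days replicate 1 measured 0.82, with the next array of the group at 2.03. C3 in 48 h replicate 3 measured 3.26, with the next at 2.76. C1qb in vehicle replicate 4 measured 5.02, with the next at 5.25; that array was also the lowest of all 16 for C1qa, C1qc and C5ar1.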

How the results depend on the processing

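Each title carries an ID number, and the replicate numbers used here follow the order of the samples. Apart from the ID number that a pair of arrays share, no label pairs samples between groups, so no paired analysis was possible. None of the 9 genes passed the adjusted limma threshold under the settings run. For the 46 further complement genes only the main setting is reported. The cause of the turns of sign below was not tested. Without a filter on background 1 gene passed at 10 days and 1 at 48 h against vehicle, and leaving out 1 array gave 0 to 1 in each comparison (1 without 10 days replicate 4 at 10 days against vehicle, and 1 without vehicle replicate 1 or 5 at 48 h against vehicle and at 10 days against 48 h), none of them a complement gene described here.

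Turned log2 differences at 10 days against vehicle were, with slide as a block, -0.151 for C2, within slide 1 -0.0271 for C1qb and -0.0451 for C3ar1, within slide 2 -0.014 for C1qc, -0.71 for C2, 0.192 for Cfb, -0.000485 for C3ar1 and -0.125 for C5ar1, and over all probes -0.013 for C1qc. At 48 h against vehicle they were, with slide as a block, -0.0565 for C2, 0.0558 for Cfb and -0.0778 for C3, within slide 1 -0.0256 for C3, -0.018 for C4b, -0.0812 for C3ar1 and -0.000356 for C5ar1, and within slide 2 -0.0726 for C1qc, 0.223 for Cfb and -0.186 for C3. Cfb had 0.0832 over all probes and 0.00437 by normexp, and C3 had -0.0107 in the authors' deposited table, -0.0113 by quantile normalization and -0.00622 by normexp.

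At 10 days against 48 h they were, within slide 1, 0.26 for C2, 0.113 for C4b, 0.0361 for C3ar1 and 0.197 for C5ar1, within slide 2 0.0686 for C1qa and 0.0586 for C1qc, and with slide as a block 0.0178 for C5ar1. C3ar1 had 0.0221 in the authors' deposited table, 0.0217 by quantile normalization and 0.00588 without both arrays that share an ID number. Without those 2 arrays Cfb had -0.259 at 10 days and -0.175 at 48 h against vehicle, C1qc 0.108 and 0.201, C2 0.0824 and 0.40, C3 -0.199 and 0.0888, and C3ar1 0.0444 and 0.0385.

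Leaving out 1 array, the ranges that crossed 0 at 10 days against vehicle were -0.138 to 0.443 (C2), -0.262 to 0.156 (Cfb) and -0.0137 to 0.0453 (C3ar1). At 48 h against vehicle they were -0.134 to 0.0785 (Cfb) and -0.108 to 0.0755 (C3). At 10 days against 48 h they were -0.12 to 0.0217 (C1qc), -0.535 to 0.0453 (C2), -0.247 to 0.17 (Cfb), -0.271 to 0.029 (C4b), -0.0453 to 0.00588 (C3ar1) and -0.146 to 0.0724 (C5ar1).

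The macrophage-made minus stroma-made value at 48 h was 0.216 within slide 1, which holds 1 vehicle array. Of the relations with marker lists, 1 passed in the authors' deposited table, against 0. Of the pairs, 0 passed without the 2 farthest arrays, 0 within slide 1 and 0 within slide 2, against 2 over 16 arrays. Correlations that turned within slide 1 were -0.00452 (C1qa with macrophage markers), -0.0683 (C1qb with macrophage markers) and -0.323 (C5ar1 with C1qb), and by the other C1qc probe -0.0403 (C1qc with C1qa). All 13 probes were well above background on every array.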
